A study of Homo sapiens with 9 samples.

Results

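ZNF genes encode zinc finger proteins, and 249 protein-coding gene entries with a numbered ZNF symbol lay on autosomes other than chromosome 19, among 57820 gene entries in the count table. The rule that chose them used symbol, gene type and chromosome, and it was set with earlier results of these data known. They carried 246 distinct symbols (ZNF747, ZNF668 and ZNF286A each had 2 entries), and fell on 19 chromosomes, with most on chromosome 16 (33 entries) and chromosome 7 (32 entries). A member was called clustered where a stretch of 200 kb held the starts (lower coordinates) of 3 or more members, and overlapping stretches were merged. The ends of the genes were not used, so a cluster of 3 members can span more than 200 kb. By this definition 77 members formed 16 clusters and 172 were solitary.

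The libraries came from Chrom-seq of HEK293T, a transformed human embryonic kidney cell line. Chrom-seq marks RNA near a chromatin mark in living cells: a reader domain carries a SunTag array of 10 GCN4 epitopes, each epitope binds an antibody fragment fused to the peroxidase APEX2, and APEX2 attaches biotin-aniline to nearby RNA, which streptavidin then captures. Cells of the CBX1 group expressed the chromodomain of mouse CBX1, which binds histone H3 trimethylated at lysine 9 (H3K9me3). Cells of the CBX1_W42A group expressed the same domain with its tryptophan at position 42 replaced by alanine, and cells of the Control group expressed the SunTag array with no reader. The labels of all 3 groups also carry the term NLS, which they do not explain. All 3 groups had 3 libraries, shared the APEX2 fusion, and were transfected for 48 h. The cells then took up biotin-aniline at 500 µM over 30 min, and labelling lasted 1 min in hydrogen peroxide at 1 mM. The reader was expressed from a plasmid under a strong viral promoter rather than from the CBX1 gene, so the groups model a transfected domain and not the endogenous protein. The labels do not say whether the 3 libraries of a group were separate cultures. The study calls its 3 CBX1 Chrom-seq replicates independent, without saying whether they were separate cultures. The p-values measure the spread between these libraries, and how much of it is technical is not given. The sample records of Control and CBX1 are numbered consecutively, and those of CBX1_W42A are numbered apart from them. Whether the CBX1_W42A libraries were made alongside the others is not given. In comparisons with CBX1_W42A, a difference between sets of libraries therefore cannot be told apart from one between readers.

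Most ZNF proteins read DNA through tandem C2H2 zinc fingers, and many carry at their start a KRAB domain that binds the co-repressor TRIM28. TRIM28 brings in the methyltransferase SETDB1, which deposits H3K9me3, the mark that CBX1 and the other HP1 proteins bind. ZNF genes are themselves known to carry H3K9me3 over parts of their bodies, most of all in the large arrays on chromosome 19. Of 236 members with a coding sequence in GENCODE 44, 92 (39.0%) held a match to a KRAB core pattern, against 179 of 240 ZNF genes of chromosome 19 (74.6%). The members held a median of 9 zinc finger patterns (range 0 to 36).

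The upstream sequence of 3 members is shown because they had the largest log2 fold changes among the members called with CBX1, and because the pair from chromosome 5 differs sharply in CpG content from ZNF117. Each run covers the 250 bases before the RefSeq start (GRCh38.p14), is written 5′ to 3′ on the strand of the gene, and has every CpG dinucleotide in capitals. ZNF117 lies at chr7:64991037-64991286 on the minus strand, ZNF354C at chr5:179060123-179060372 on the plus strand and ZNF454 at chr5:178940948-178941197 on the plus strand.
ZNF117: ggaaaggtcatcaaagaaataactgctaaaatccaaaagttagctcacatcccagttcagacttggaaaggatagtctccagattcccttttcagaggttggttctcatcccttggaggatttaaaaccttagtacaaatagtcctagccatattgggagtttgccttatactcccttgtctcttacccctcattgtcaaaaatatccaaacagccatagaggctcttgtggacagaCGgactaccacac
ZNF354C: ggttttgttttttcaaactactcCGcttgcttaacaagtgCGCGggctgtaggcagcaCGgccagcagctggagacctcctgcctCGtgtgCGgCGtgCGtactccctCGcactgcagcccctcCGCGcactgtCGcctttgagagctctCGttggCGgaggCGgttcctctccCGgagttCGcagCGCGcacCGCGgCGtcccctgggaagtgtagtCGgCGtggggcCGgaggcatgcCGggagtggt
ZNF454: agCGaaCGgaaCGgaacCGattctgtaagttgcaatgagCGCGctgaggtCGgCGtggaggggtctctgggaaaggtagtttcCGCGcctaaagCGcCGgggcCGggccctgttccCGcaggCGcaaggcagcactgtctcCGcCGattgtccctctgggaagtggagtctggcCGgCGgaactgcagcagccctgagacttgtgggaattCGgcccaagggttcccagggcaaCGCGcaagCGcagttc
The run of ZNF117 held 1 CpG, that of ZNF354C held 26 and that of ZNF454 held 23. An exact match of these runs to GRCh37, the build of the counts, placed the starts of ZNF354C and ZNF454 within 0.1 kb of the start of the counted gene. The RefSeq start of ZNF117 lay 15.648 kb inside the counted gene, in the stretch shared with ERV3-1, so its run does not lie upstream of the gene as counted. Over the same 250 bases the observed over expected CpG ratio was 0.09 for ZNF117, 0.97 for ZNF354C and 0.91 for ZNF454. The median was 0.80 over the 197 members with a RefSeq promoter and 0.56 over all 35116 RefSeq promoters, over the same length.

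Not every member could be compared. No read was counted in any library for 19 members, and 12 of these had under 1% of their span free of another gene on the same strand. Its part in the missing counts was not tested, and 64 of the 82 members that share span on their strand were tested for CBX1 against Control. Another 13 members had 1 to 18 counts over the 9 libraries. A comparison tested the genes with more than 18 counts over its 6 libraries, which kept 214 members where either reader was set against Control and 216 where CBX1 was set against CBX1_W42A. A member such as ZNF454 entered the test mainly through its CBX1 counts. Among the untested members, ZNF785 had 0 counts in the 3 Control libraries, 12 over the 3 CBX1 libraries and 12 over the 3 CBX1_W42A libraries. The libraries held between 8379542 and 11082852 counts. All 8 markers of the cell line with a value were above 1 CPM (counts scaled to a fixed library total) in every library. NEFL, also listed for the line, and PECAM1, listed for other cell types, had no value here. Of the 10 markers of other cell types with a value, 2 were above 1 CPM in every library and 3, CD3E, HBB and COL1A2, were at 0 throughout.

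With the CBX1 reader, 10 of the 214 tested members rose and none fell. A gene was called where edgeR's quasi-likelihood test gave a Benjamini-Hochberg adjusted p under 0.05 over all genes and the log2 fold change was at least 0.75 in size. The members called higher were 4.67% of those tested, against 7.06% of all 18837 genes tested. Their share also lay close to the 4.57% of the 13992 other protein-coding genes and below the 19.2% of the 187 ZNF genes of chromosome 19, 36 of which were called higher. Among all genes 0.34% were called lower. By the adjusted p alone, 27 members lay higher (10.6% of all genes) and 16 lay lower (9.46% of all genes). All 3 CBX1 libraries were above all 3 Control libraries in 50 members (17.9% of all genes) and below them in 42 (19.9% of all genes). The median log2 fold change was 0.06 over the members, 0.03 over all genes and 0.41 over the ZNF genes of chromosome 19. These shares and medians describe the lists, and no test of their difference was made.

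**Figure D1:**
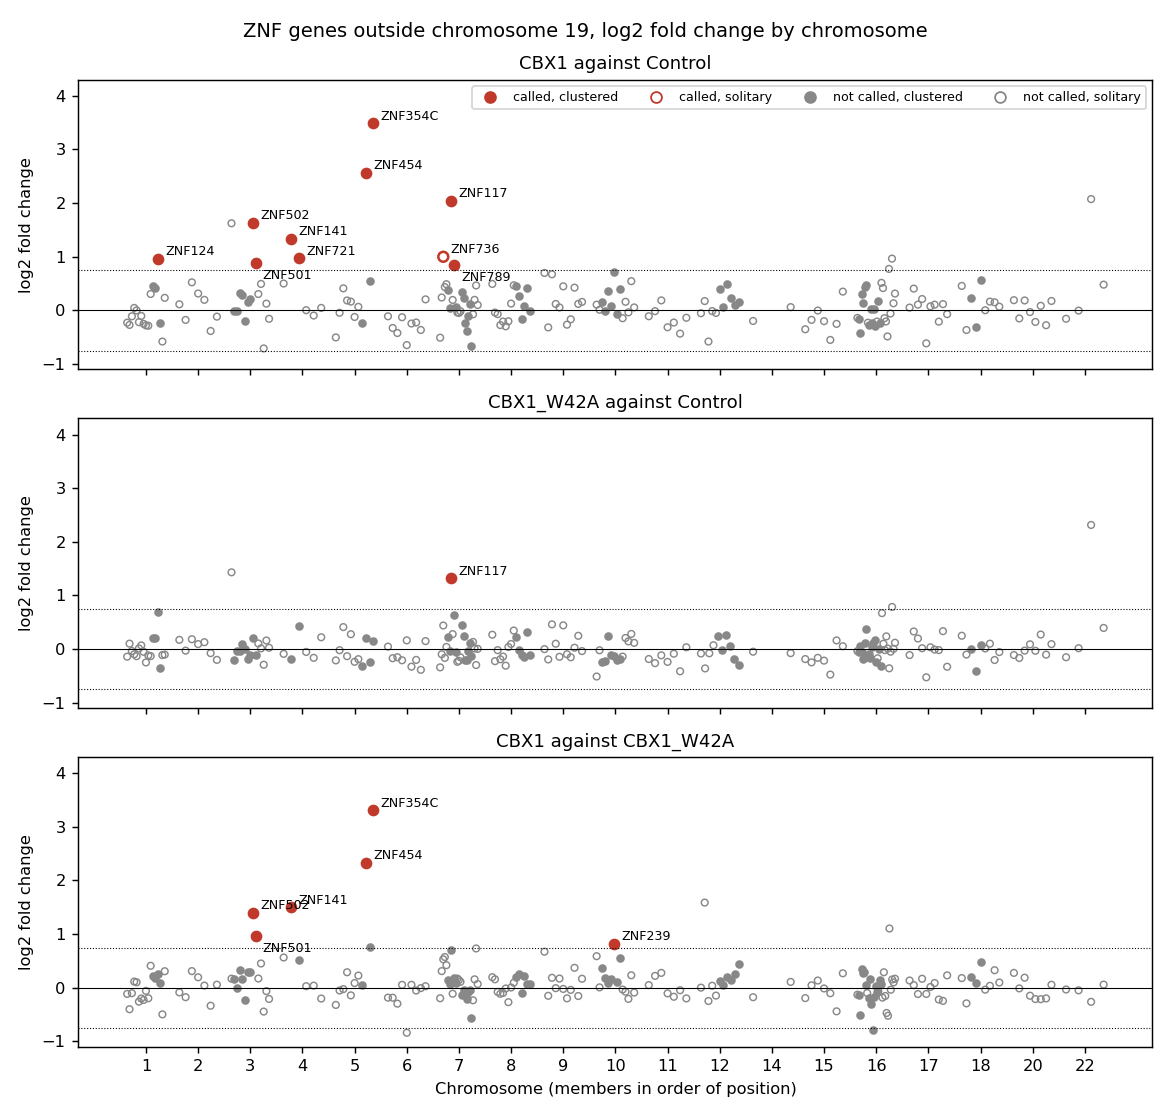
Log2 fold change of each tested member, by chromosome and in order of position, for the 3 comparisons; filled points are clustered members, open points solitary ones, red points members called higher, and dotted lines mark 0.75 in either direction. The 10 called members of the upper panel lie on chromosomes 1, 3, 4, 5 and 7, the middle panel holds 1 called member and the lower panel 6.

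The 10 called members lay on chromosomes 1, 3, 4, 5 and 7. Chromosome 7 held 3 of them, chromosomes 3, 4 and 5 held 2 each, and chromosome 1 held 1. Chromosome 16, which carries the most members, had 0 called of 26 tested by edgeR, beside 7.06% of all genes called higher. By the adjusted p alone it had 2 higher and 1 lower, beside 10.6% and 9.46% of all genes. With so few members per chromosome, these counts set no chromosome apart. Of the 10, 9 were clustered and 1 was solitary. These were 9 of 66 tested clustered members (median log2 fold change 0.16) and 1 of 148 tested solitary members (median -0.01), beside 7.06% of all genes. When neighbours were instead chained wherever the gap was at most 200 kb, all 10 were clustered, 10 of 74 against 0 of 140. By the adjusted p alone, 8 of those 140 solitary members lay higher and 12 lower, beside 10.6% and 9.46% of all genes. Leaving out the members that share span with another gene on their strand gave 6 of 50 clustered and 1 of 100 solitary members. Members of a cluster share a location and many are related in sequence, so they are not independent observations.

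**Figure D2:**
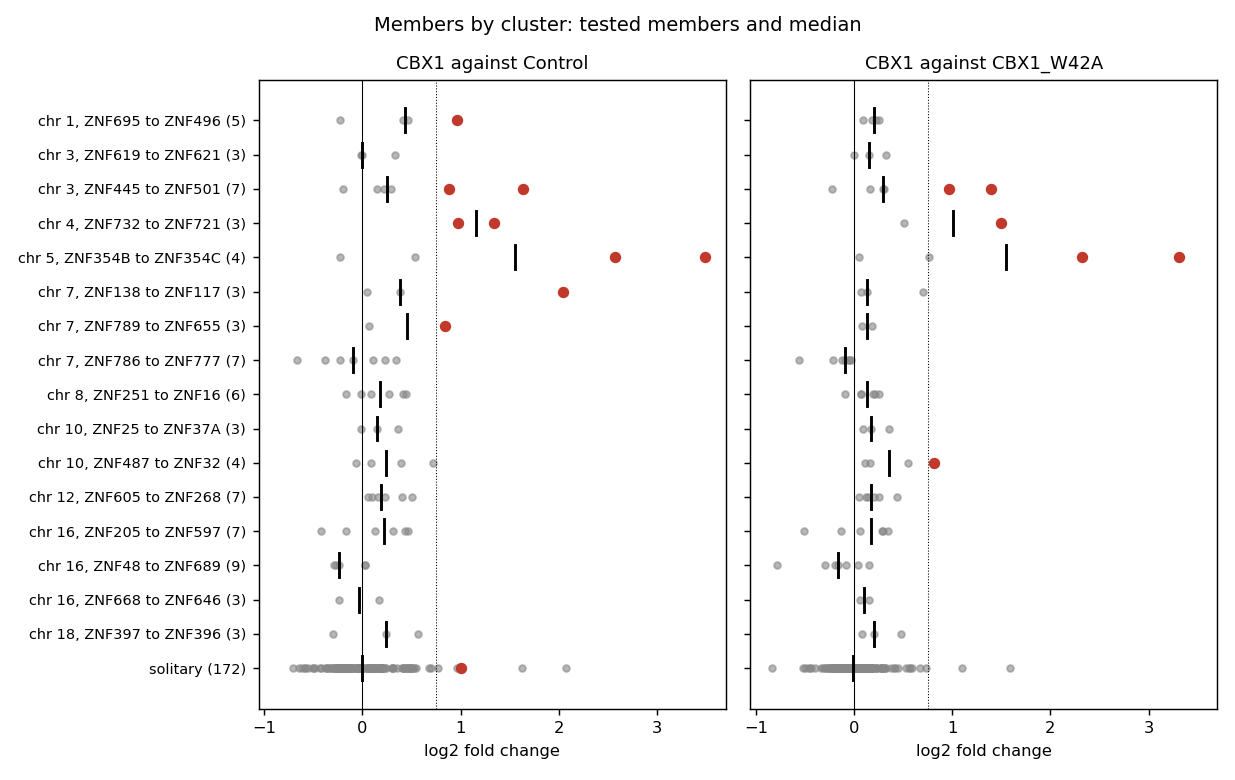
Log2 fold change of each tested member by cluster, with the first and last member of each cluster and its number of entries, and with the solitary members in the lowest row; bars are medians and red points members called higher. The chromosome 5 and chromosome 4 clusters have the highest medians against Control, 1.55 over 4 tested members and 1.15 over 2. On chromosome 5, ZNF354C and ZNF454 passed the count filter mainly through their CBX1 counts. Nothing is read from this order of clusters.

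The cluster on chromosome 5 (hg19, 178286954 to 178510538, 223.6 kb) held ZNF354B, ZNF454, ZNF879 and ZNF354C, all on the plus strand. ZNF354C, a KRAB protein with 11 finger patterns, had 3, 0 and 6 counts in the Control libraries, 36, 31 and 40 in the CBX1 libraries and 2, 6 and 3 in the CBX1_W42A libraries. It was near 0 wherever the intact reader was missing, and the CBX1 libraries stood above all 6 others. Its log2 fold change with CBX1 was 3.49 against Control (SE 0.53, adjusted p = 0.000389) and 3.31 against CBX1_W42A (SE 0.45, adjusted p = 0.000561), and CBX1_W42A differed from Control by 0.15 (SE 0.89, adjusted p = 0.948).

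ZNF454, also a KRAB protein, had 2, 2 and 6 counts with Control, 22, 15 and 26 with CBX1, and 8, 5 and 0 with CBX1_W42A. The pattern over the groups was that of ZNF354C at about the same depth. ZNF454 rose by 2.57 against Control (SE 0.54, adjusted p = 0.00358) and by 2.33 against CBX1_W42A (SE 0.57, adjusted p = 0.0343). The latter call was lost without CBX1 replicate 1 (adjusted p = 0.142), CBX1 replicate 3 (0.125), CBX1_W42A replicate 2 (0.0545) or CBX1_W42A replicate 3 (0.0925). Between these genes, ZNF879 had a log2 fold change of 0.54 (SE 0.20, adjusted p = 0.0662) against Control and 0.76 (SE 0.24, adjusted p = 0.0955) against CBX1_W42A and was called in neither. It was called against CBX1_W42A with a replicate block, without a filter on low counts and without CBX1_W42A replicate 2. ZNF354B, at the edge of the cluster, had -0.23 and was not called. ZFP2, a zinc finger gene inside the same stretch that the symbol rule leaves out, had 68, 55 and 44 counts with Control, 113, 115 and 158 with CBX1, and 82, 80 and 47 with CBX1_W42A. It rose by 1.18 against Control (SE 0.18, adjusted p = 0.000351) and by 0.96 against CBX1_W42A (SE 0.20, adjusted p = 0.0122).

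**Figure D3:**
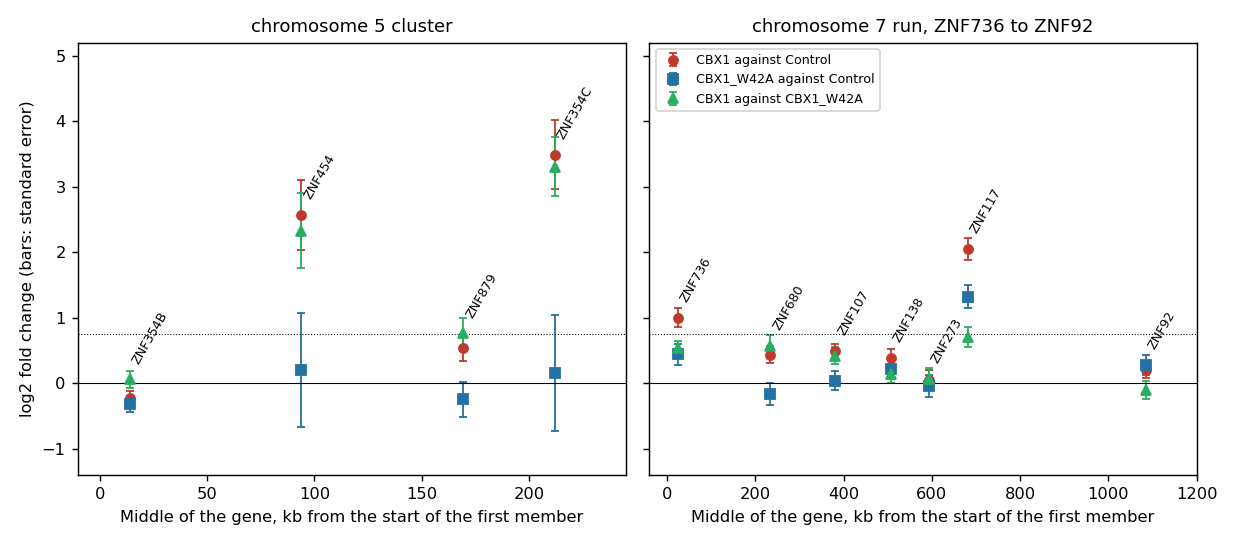
Log2 fold change with its standard error for the members of the chromosome 5 cluster (left) and of the chromosome 7 run from ZNF736 to ZNF92 (right), by the distance in kb of the middle of the gene from the start of the first member, for the 3 comparisons. ZNF354C reaches 3.49 and ZNF117 2.05 with CBX1 against Control, and ZNF117 alone among these members passed the threshold with CBX1_W42A against Control, at 1.32.

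ZNF117 on chromosome 7 (hg19, 64432154 to 64467062, minus strand) had the smallest p of the members and was the only member called with both readers at the fold threshold. It had 60, 59 and 58 counts with Control, 260, 271 and 212 with CBX1, and 167, 166 and 152 with CBX1_W42A. In CPM these were 5.82, 6.67 and 7.002 with Control, 29.0, 30.0 and 20.5 with CBX1, and 15.3, 17.5 and 16.1 with CBX1_W42A. The 3 groups did not overlap, and CBX1_W42A lay between the other two. ZNF117 rose 4.14-fold with CBX1 (log2 fold change 2.05, SE 0.17, adjusted p = 4.88e-06) and 2.497-fold with CBX1_W42A (log2 fold change 1.32, SE 0.18, adjusted p = 0.00175). CBX1 exceeded CBX1_W42A by 0.70 on the log2 scale (SE 0.15, adjusted p = 0.0173), just under the fold threshold. That value passed the threshold without CBX1 replicate 3 (0.86) or CBX1_W42A replicate 2 (0.77). ZNF117 shared its span with ERV3-1, the envelope gene of an endogenous retrovirus, and 54.5% of the span was free of it. ERV3-1 had 0 counts in all 9 libraries. Whether reads from the shared stretch were counted for ZNF117 or for neither gene is not given.

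The 7 members around ZNF117 on chromosome 7, from ZNF736 to ZNF92 (63767837 to 64866038, 1098.2 kb), are described together. This run was picked after the values were seen and follows neither cluster definition. All 7 had a positive log2 fold change with CBX1 against Control, as 117 of 214 tested members and 16 of 25 on chromosome 7 did. ZNF736, a KRAB protein, had 13.6, 20.02 and 21.4 CPM with Control, 36.3, 35.3 and 36.1 with CBX1, and 24.1, 23.9 and 26.7 with CBX1_W42A. The 3 groups did not overlap, and CBX1_W42A again lay between the other two. It rose by 1.00 against Control (SE 0.15, adjusted p = 0.000298), and its excess of 0.53 over CBX1_W42A passed the adjusted p (0.0214) but not the fold threshold. ZNF680 (0.43, adjusted p = 0.0229) and ZNF107 (0.49, adjusted p = 0.00577) passed the adjusted p alone. ZNF138 had 0.38, ZNF92 had 0.19 and ZNF273 had 0.05, and none of these passed. ZNF680, ZNF107, ZNF138, ZNF273 and ZNF92 were added for their place in the run after their values were seen, as were ZNF879 and ZNF354B above.

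On chromosome 3, ZNF502 and ZNF501 lie next to each other at the end of a cluster of 7 members (44481262 to 44778575), and the canonical product of neither holds the KRAB pattern. ZNF502 had 18, 41 and 30 counts with Control, 60, 134 and 90 with CBX1, and 46, 34 and 34 with CBX1_W42A. The CBX1 libraries spread widely but stayed above the rest in CPM, at 6.68, 14.8 and 8.70 against at most 4.64. It rose by 1.63 against Control (SE 0.32, adjusted p = 0.0025) and by 1.4 against CBX1_W42A (SE 0.26, adjusted p = 0.00603).

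ZNF501 had 7.57, 11.2 and 5.79 CPM with Control, 14.8, 14.5 and 15.4 with CBX1, and 7.60, 7.37 and 7.83 with CBX1_W42A. Control spread more than either reader group, and the CBX1 libraries lay above all others. It rose by 0.88 against Control (SE 0.20, adjusted p = 0.00497) and by 0.97 against CBX1_W42A (SE 0.17, adjusted p = 0.00305). Without Control replicate 3 its difference from Control was 0.70 and was no longer called. The other 4 tested members of this cluster were not called.

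The cluster on chromosome 4 (264464 to 492945) held ZNF732, which had no counts, and ZNF141 and ZNF721, both called. ZNF141, a KRAB protein, had 20, 12 and 10 counts with Control, 40, 38 and 29 with CBX1, and 15, 19 and 6 with CBX1_W42A. The low counts left CBX1 clear of both other groups, while Control and CBX1_W42A overlapped. It rose by 1.34 against Control (SE 0.33, adjusted p = 0.0103) and by 1.5 against CBX1_W42A (SE 0.37, adjusted p = 0.0374). The call against CBX1_W42A was lost without CBX1 replicate 1, 2 or 3 (adjusted p 0.172, 0.0827 and 0.052) and without CBX1_W42A replicate 1 or 3 (0.0707 and 0.134). ZNF721 had 77, 52 and 69 counts with Control, 119, 129 and 148 with CBX1, and 97, 98 and 97 with CBX1_W42A. CBX1_W42A lay between the other groups in CPM, without overlap. ZNF721 rose by 0.97 against Control (SE 0.17, adjusted p = 0.00127) and differed from CBX1_W42A by 0.51 (SE 0.17, adjusted p = 0.109). Only 34.1% of the ZNF721 span was free of other genes on its strand. Its partner there, the pseudogene ABCA11P, had 1.12 against Control (SE 0.35, adjusted p = 0.0328), so reads of the pair may be split between them.

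ZNF789 on chromosome 7 and ZNF124 on chromosome 1, both with the KRAB pattern, completed the 10. ZNF789 had 19.8, 22.2 and 19.7 CPM with Control, 38.3, 40.9 and 30.1 with CBX1, and 32.31, 36 and 27.62 with CBX1_W42A. Both reader groups lay above Control and overlapped each other. It rose by 0.84 with CBX1 against Control (SE 0.13, adjusted p = 0.000466). With CBX1_W42A its value was 0.63 (SE 0.14, adjusted p = 0.0254), below the fold threshold, and CBX1 against CBX1_W42A gave 0.19 (adjusted p = 0.527). Without CBX1 replicate 2 its difference between CBX1 and Control was 0.746 and was no longer called. ZNF124 had 37, 40 and 39 counts with Control, 83, 57 and 93 with CBX1, and 70, 90 and 45 with CBX1_W42A. Its reader groups overlapped as those of ZNF789 did. It rose by 0.97 with CBX1 against Control (SE 0.23, adjusted p = 0.00705), while CBX1_W42A against Control gave 0.68 (SE 0.27, adjusted p = 0.165) and CBX1 against CBX1_W42A 0.25 (SE 0.24, adjusted p = 0.639).

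**Figure D4:**
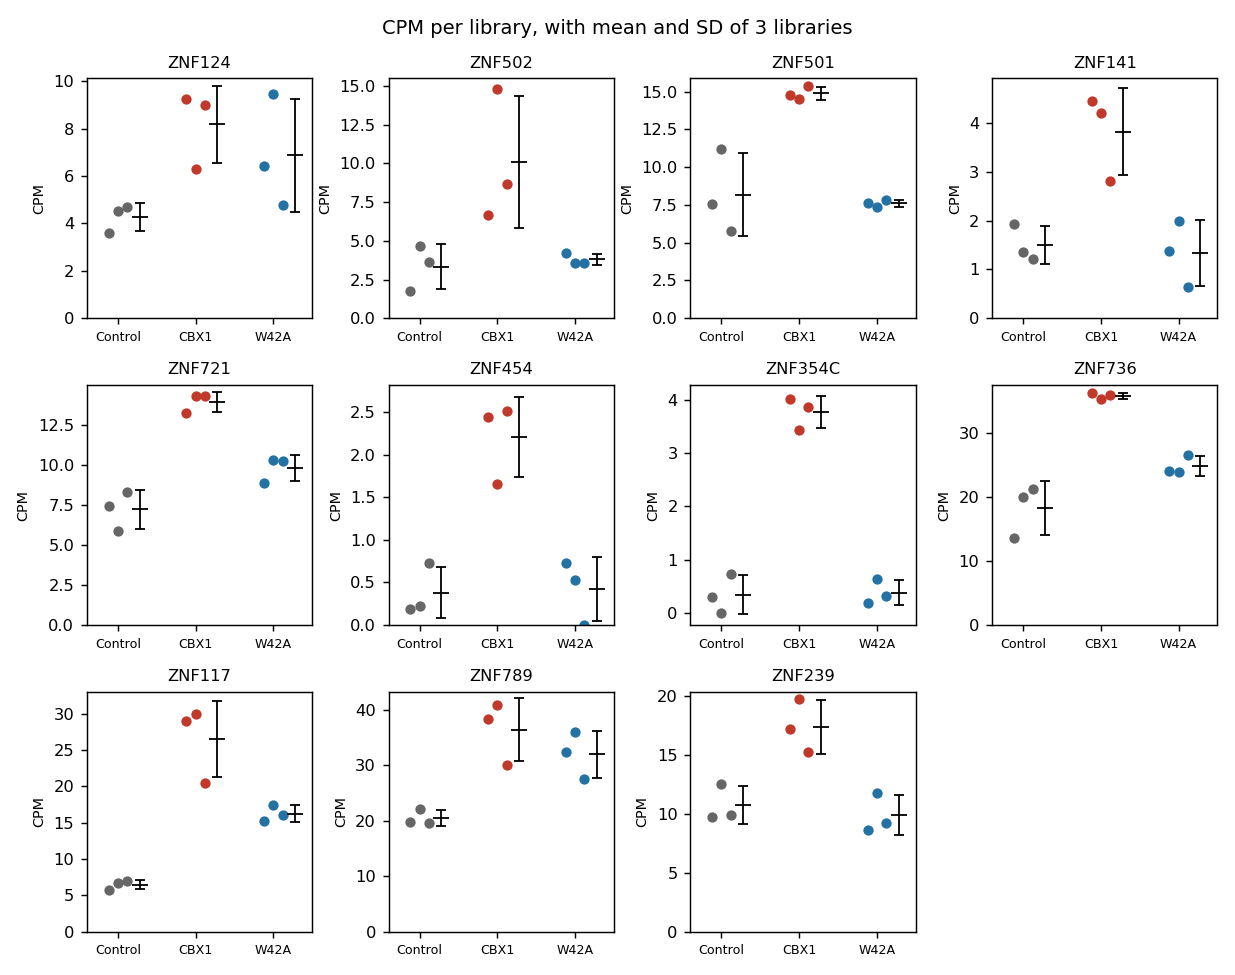
CPM in each library for the 10 members called higher with CBX1 against Control and for ZNF239, called higher against CBX1_W42A; points are libraries, and the bar beside them the mean and SD of 3 libraries. In each of these 11 genes the 3 CBX1 libraries lie above the 3 Control libraries, and in ZNF117, ZNF736 and ZNF721 the CBX1_W42A libraries (labelled W42A) lie between those of the other groups without overlap.

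With CBX1_W42A few members differed from Control. ZNF117 was the only member called higher with CBX1_W42A, 1 of 214 tested (0.974% of all genes), and edgeR called 0 lower (0.0214% of all genes). DESeq2 also called ZNF117 alone. By edgeR's adjusted p alone 2 members lay higher (1.37% of all genes), ZNF117 and ZNF789, and 2 lay lower (1.25% of all genes), ZNF592 (-0.48) and ZNF24 (-0.41). All 3 CBX1_W42A libraries were above Control in 22 members (12.4% of all genes) and below in 21 (11.9% of all genes). ZNF592 was picked out after its values were seen. The median log2 fold change of the tested members was -0.04. Of the ZNF genes of chromosome 19, 2 of 185 were called higher.

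Compared directly with CBX1_W42A, CBX1 raised 6 of 216 tested members (0.795% of all genes) and lowered none (0.201% of all genes). By the adjusted p alone 9 lay higher (1.32% of all genes) and 2 lower (0.925% of all genes). All 3 CBX1 libraries were above CBX1_W42A in 34 members (10.1% of all genes) and below in 13 (11.3% of all genes). The called members were ZNF354C, ZNF501, ZNF502, ZNF454 and ZNF141, described above, and ZNF239. On chromosome 19, 22 of 189 ZNF genes were called higher. The median log2 fold change was 0.05 for the members and 0.38 for the chromosome 19 genes. ZNF239, a zinc finger gene of a chromosome 10 cluster whose product lacks the KRAB pattern, had 8.61, 11.8 and 9.21 CPM with CBX1_W42A, 17.1, 19.7 and 15.2 with CBX1, and 9.70, 12.6 and 9.90 with Control. Control and CBX1_W42A overlapped, and CBX1 stood above both. ZNF239 rose by 0.82 against CBX1_W42A (SE 0.17, adjusted p = 0.0138), and against Control its 0.72 (SE 0.16, adjusted p = 0.00537) passed the adjusted p but not the fold threshold. The call against CBX1_W42A was lost without any of CBX1 replicate 1 or 2 or CBX1_W42A replicate 1 or 3, at adjusted p values between 0.0514 and 0.0553. The number of members called was 3 without CBX1 replicate 1 and ranged to 8 without CBX1_W42A replicate 2. ZNF354C, ZNF501 and ZNF502 were the calls that held without CBX1 replicate 1.

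Smaller differences ran in both directions. Besides the 10 called members, 17 lay higher with CBX1 against Control by the adjusted p alone, with log2 fold changes between 0.33 and 0.72, and 13 of these had the KRAB pattern. The 16 that lay lower had values between -0.71 and -0.29, and 5 of these had the pattern. Of the 206 tested members with a coding sequence, 78 had it. In the chromosome 7 cluster that ends with ZNF777, ZNF777 itself had 220, 200 and 202 CPM with Control, 105, 158 and 124 with CBX1, and 165, 218 and 188 with CBX1_W42A. The CBX1 libraries lay below both other groups. Its log2 fold change was -0.66 against Control (SE 0.12, adjusted p = 0.00138) and -0.56 against CBX1_W42A (SE 0.13, adjusted p = 0.0264). Without CBX1 replicate 2 the former was -0.84 and was called.

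In the clusters without a called member, the member with the smallest p had values of both signs. ZNF251 (0.45, adjusted p = 0.00378), ZNF37A (0.36, adjusted p = 0.0223) and ZNF621 (0.33, adjusted p = 0.0464) lay higher with CBX1 by the adjusted p alone. ZNF213 (-0.42, adjusted p = 0.0171) and ZNF24 (-0.30, adjusted p = 0.023), a SCAN domain protein, lay lower by the same measure. ZNF140 (0.50), ZNF689 (-0.29) and ZNF646 (-0.23) did not pass. The solitary member ZNF654, picked out after its values were seen, had 32.9, 43.4 and 35.01 CPM with Control and 22.6, 23.5 and 21.0 with CBX1. Its log2 fold change of -0.71 (SE 0.13, adjusted p = 0.0012) was the lowest of the tested members, just short of the fold threshold. At the other side of the threshold, ZNF280A (2.07), ZNF860 (1.62), ZNF469 (0.97) and ZNF19 (0.77), also picked out afterwards, exceeded 0.75 but had adjusted p values of 0.114, 0.0909, 0.45 and 0.215, all with a mean under 1 CPM in Control.

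The log2 fold change was set beside the depth of counts in Control. A member with few Control counts could pass the filter mainly through its CBX1 counts, as ZNF354C (9 against 107 counts over 3 libraries) and ZNF454 (10 against 63) did, so the members lowest in Control were selected towards higher values with CBX1, and nothing is read from their count. Of the 72 members with the lowest Control CPM, 8 were called higher (7.06% of all genes) and the median log2 fold change was 0.20. Of the 70 in the middle, 2 were called (median 0.06), and of the 72 highest, 0 were called by edgeR (median -0.15). By the adjusted p alone, 4 of the 72 highest lay higher and 12 lower, beside 10.6% and 9.46% of all genes. These shares over all genes cover every Control level together. Spearman's rho between the log2 fold change and the Control CPM was -0.51 over 214 members. The Control libraries enter both values, which are therefore not independent. For CBX1 against CBX1_W42A the rho with the CBX1_W42A level was -0.34 over 216 members. With CBX1 against Control, rho was 0.08 for the gene span (214 members) and -0.17 for the G content of the transcript, the base that biotin-aniline labels (206 members). With CBX1 against CBX1_W42A, rho was 0.16 for the span (216 members) and -0.27 for the G content (208 members).

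**Figure D5:**
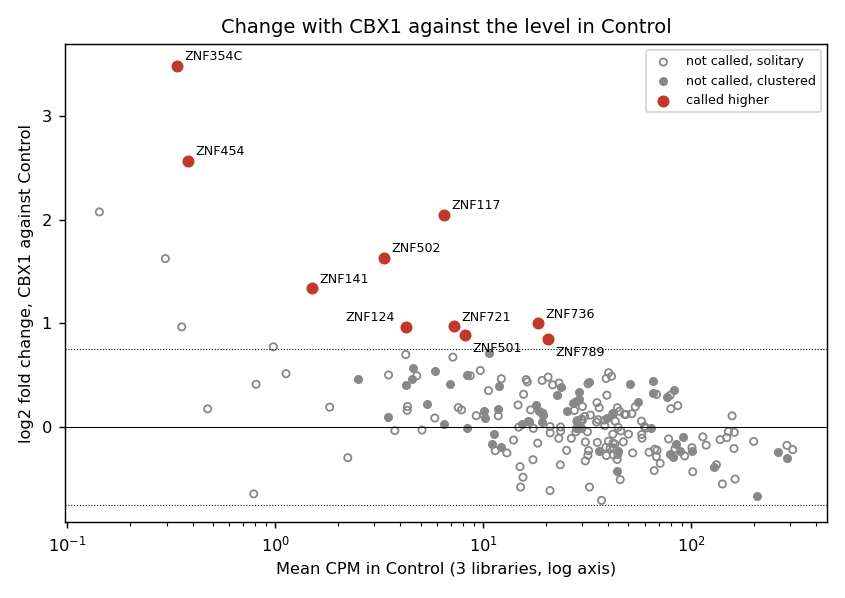
Log2 fold change with CBX1 against Control for each of the 214 tested members against its mean CPM in Control on a log axis; filled points are clustered members, open points solitary ones and red points members called higher, with dotted lines at 0.75 in either direction. Of the 72 members with the highest Control CPM none is called, beside 7.06% of all genes at any level. ZNF354C and ZNF454, the called members with the highest log2 fold changes, both have a mean under 1 CPM in Control. Both passed the count filter mainly through their CBX1 counts.

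The members with the highest mean CPM in Control were not called in any comparison. ZNF768 had 92.8 CPM per kb of gene span with Control and 77.5 with CBX1, ZNF24 had 21.8 and 17.5, ZNF326, a subunit of a complex that acts in splicing, had 7.64 and 6.46, ZNF777 had 6.96 and 4.34, and ZNF638, a nuclear DNA-binding protein, had 1.82 and 1.59. Summed over all 249 members, the level was 9375 ± 137 CPM with Control, 8896 ± 150 with CBX1 and 9015 ± 405 with CBX1_W42A (SD, n = 3 each). The ZNF genes of chromosome 19 summed to 3393 ± 158, 4139 ± 61.4 and 3353 ± 308 CPM in the same order. So the members' sum lay lower in CBX1 than in Control in every library, and the chromosome 19 sum lay higher.

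KRAB and position were also read together, with 7.06% of all genes called higher as the background. With the KRAB pattern 6 of 78 tested members (7.69%, near that background) were called higher with CBX1 against Control (median log2 fold change 0.17), and without it 4 of 128 (3.12%, median -0.04). Among clustered members the shares were 5 of 37 with the pattern and 4 of 28 without it. Among solitary members they were 1 of 41 with it and 0 of 100 without it. The 100 solitary members without the pattern had a median of -0.06, with 1 higher and 9 lower by edgeR's adjusted p alone.

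Of 7 short promoter motifs searched on both strands of a 300 base window, from 250 before to 50 after the RefSeq start, CCGGAA, the core that ETS factors bind, was in 46.2% of the 197 member promoters and in 17.2% of all promoters. GGGCGG was in 60.9% against 45.0%, CCAAT in 45.2% against 34.6% and TATAAA in 3.05% against 11.5%. CACGTG was in 6.60% against 7.26%, the palindrome that NRF1 binds in 3.05% against 1.24% and the palindrome that Kaiso binds in 0.508% against 0.424%. Among the 9 called members with a promoter entry, CCGGAA matched in 4 (ZNF124, ZNF141, ZNF502 and ZNF736), and ZNF354C, ZNF454 and ZNF501 held no match to any of the 7. The observed over expected CpG ratio of these 9 had a median of 0.70 and ranged from 0.09 in ZNF117 to 1.03 in ZNF789. The RefSeq start of ZNF736 also lay inside the counted gene, by 6.502 kb. Over all tested members with a promoter, rho between the CpG ratio and the log2 fold change was -0.04 (n = 174).

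The KRAB co-repressors and H3K9 methylation genes themselves were measured in the same libraries. Of 22 listed genes 21 were found, and edgeR called 0 of them in any comparison. Their median log2 fold change was -0.14 with CBX1 against Control and -0.03 with CBX1 against CBX1_W42A. By the adjusted p alone 1 lay higher and 5 lower in the former comparison (10.6% and 9.46% of all genes), and 2 lay higher and 0 lower in the latter (1.32% and 0.925% of all genes). ATF7IP, the partner of SETDB1, had the highest value with CBX1, 0.52 against Control (SE 0.09, adjusted p = 0.00125). EHMT1 (-0.31), EHMT2 (-0.35), FAM208A (-0.27), CHD4 (-0.28) and HDAC2 (-0.31), all repressor or H3K9 methylation factors, were the 5 that lay lower there. Against CBX1_W42A the 2 that lay higher were ATF7IP (0.73, SE 0.11, adjusted p = 0.000733) and SETDB1 (0.47, SE 0.11, adjusted p = 0.0327). Against Control SETDB1 had 0.16 and TRIM28 -0.12, and neither passed.

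Captured RNA is all that was compared: RNA levels in unlabelled cells were not analysed here, so a higher level in the cell and more capture cannot be told apart. The mitochondrial share of counts was 3.16 to 3.50% with Control, 4.36 to 4.70% with CBX1 and 4.21 to 4.39% with CBX1_W42A, and its part in the differences from Control was not tested. ZNF genes have close relatives, and how reads that fit several copies were counted is not given in the sources used here.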

How the data were processed

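Per the labels and the methods of the study, the authors checked reads with FastQC 0.11.8, trimmed them with fastp 0.23.1, aligned them to hg19 with HISAT2 2.1.0 and counted them per gene of GENCODE 19 with featureCounts 2.0.1. The deposited values are raw counts per gene. How strand and multiply aligned reads were treated is not given in the sources used here. Gene coordinates are those of hg19, and upstream sequence and CpG values are from RefSeq on GRCh38.p14, where 197 of 246 symbols matched. No protein sequence table was used.

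The members and the lists were chosen with earlier results of these data known. Each comparison used its 6 libraries, edgeR 4.0.16 (TMM scaling, quasi-likelihood test), genes with more than 18 counts in sum, and Benjamini-Hochberg adjustment over all genes tested. Calls were made at adjusted p under 0.05 and an absolute log2 difference of 0.75 or more. The standard error is the size of the log2 fold change divided by the square root of F. CPM values share TMM factors over all 9 libraries. KRAB and finger patterns were searched in translated canonical GENCODE 44 transcripts. Genes were named by rule: ZNF117, the smallest p of each cluster and of the calls in each comparison, and the 5 highest mean CPM in Control. Alternatives were DESeq2 1.42.0, other scaling, filters and trends, a replicate block and leaving out each library. Total counts per library limited precision for the members with few reads.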

Additional observations from a re-analysis of the deposited data

How the results depend on the processing

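DESeq2, relative log expression factors, the all-library fit and a replicate block kept all 10 members called with CBX1 against Control and all 6 called against CBX1_W42A, and every alternative called ZNF117 with CBX1_W42A against Control. Over the 9 same-number pairs of libraries the correlation of deviations was -0.215 to 0.168, and over the 18 other pairs -0.283 to 0.224. Between CBX1 and CBX1_W42A it was 0.168, 0.0822 and 0.119 for replicates 1, 2 and 3. Pairs of unlike number there gave -0.193 to 0.0863. Whether libraries of the same number belong together is not given, and the main fit used no pairing. The replicate block, which pairs libraries of the same number, gave 10, 1 and 7 calls in the 3 comparisons, ZNF879 being the added call against CBX1_W42A. Members called higher with CBX1 against Control numbered 5 at a minimum log2 fold change of 1, 13 with library size alone and 9 to 13 when each library was left out. With the abundance trend removed ZNF141 was no longer called (0.95 against Control and 1.399 against CBX1_W42A). Without a filter ZNF785 was also called against Control. Members called lower numbered 1, ZNF654, with the span trend removed and 0 to 2 when each library was left out, the 2 being ZNF654 and ZNF777 without CBX1 replicate 2. Against CBX1_W42A, 3 to 8 members were called higher when each library was left out.

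The median log2 fold change of the members with CBX1 against Control was 0.14 with library size alone, 0.0752 with edgeR's own expression filter, 0.0275 with the abundance trend removed, 0.0169 with the span trend removed and 0.0267 to 0.0743 when each library was left out. Against CBX1_W42A it was 0.0921 with library size alone, 0.0672 with the expression filter, 0.0696 in the all-library fit, 0.0645 with the abundance trend removed and 0.0319 to 0.0846 when each library was left out. In both comparisons its sign held throughout. For CBX1_W42A against Control the median was -0.0647 to -0.0015 when each library was left out. Over the other alternatives it was -0.0596 to 0.037, so its sign did not hold. The cause of these shifts was not tested.

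Among the named genes, the values that changed sign were uncalled differences between CBX1_W42A and Control. With the abundance trend removed they were -0.0494 for ZNF502, -0.29 for ZNF454 and -0.35 for ZNF354C. When each library was left out in turn, they ranged from -0.12 to 0.53 for ZNF502, -0.30 to 0.18 for ZNF501, -0.58 to 0.14 for ZNF141, -0.46 to 0.99 for ZNF454, -0.42 to 1.19 for ZNF354C and -0.28 to 0.0084 for ZNF239. The cause was not tested. Of 673 alternative values of 45 named results, 637 kept direction and side of the threshold, 17 lost the call, 6 gained it and 13 changed sign. Members with few counts, such as ZNF454 and ZNF354C, had the widest errors between CBX1_W42A and Control.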
